A study of Schizosaccharomyces pombe with 3 samples.

Results

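Of 55 fission yeast genes for the proteasome and the ubiquitin enzymes that feed and counter it, 1 passed a 2-fold size rule. This was 1.82% against wild type on each array of the eca39 deletion strain, beside 1.71% (unadapted) and 1.22% (adapted) of all features. The count alone therefore does not set these genes apart, while the proteasome subunits themselves stayed within narrow limits. The genes were those whose symbol in the array's annotation begins with rpt, rpn, pre, pup, pts, mts, pad, ubc, ubp or uch followed by a number. The rule found 55 genes among 2899 named genes and 4981 features in all, a feature being a named gene or a probe set without a single name. They comprised 26 proteasome subunits, 11 conjugating enzymes and 18 ubiquitin proteases, and each was read by 1 probe set. Another probe set that matched the rule carries the names of several genes and was left out.

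Schizosaccharomyces pombe RNA was measured on 3 Affymetrix arrays, with 1 culture for each group. The adapted culture came from strain SpHT257-1 (h- eca39∆::kanMX4), in which a kanMX4 cassette replaces eca39, which encodes an aminotransferase of branched-chain amino acids. It was taken from an EMM2-N plate where it had grown beside wild-type cells, with glutamate at 15 mM and valine, leucine and isoleucine at 2 mM. The deletion culture was that strain without adaptation, taken from a YE plate of rich medium, and the wild-type culture was the prototroph SpHT219 (h-), also from a YE plate. Each was then grown in liquid YE, again with these 3 branched-chain amino acids at 2 mM, to an optical density of about 1. Adaptation and plate history cannot be told apart, and the labels mention no further culture of any group. The arrays read whole cultures, so fewer cells that express a gene and less RNA per cell cannot be told apart.

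Cells mark proteins for destruction by attaching ubiquitin, which an activating enzyme hands to a conjugating enzyme and a ligase places on the target. The proteasome unfolds and cuts the marked proteins, with a regulatory particle that recognises and unfolds them and a core particle that holds the cutting sites. Ubiquitin proteases remove or trim the mark, so that ubiquitin is reused or a target is spared, and the same system recycles amino acids from cell proteins.

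Values are log2 expression readings, and a difference of 1 on this scale is 2-fold. The words rose and fell are kept for genes whose readings differed at least 2-fold with the higher one at or above 9.82, the 30th percentile of the table. With 1 array per group there was no replicate check, no spread and no p-value, and every value is only as precise as a single array allows. The array medians were 10.69 in the adapted culture, 10.69 in the deletion culture and 10.64 in wild type. The eca39 probe set read 6.37 in the adapted culture, 6.12 in the deletion culture and 14.60 in wild type, as the labels of these strains say.

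The gene that rose was ubp11 (SPBC19C2.04C), which encodes a protease of the ubiquitin-specific family. It read 11.57 in the adapted culture, 11.74 in the deletion culture and 10.15 in wild type. Both mutant readings were thus well above the wild-type one, with a 2.68-fold difference in the adapted culture and a 3.00-fold difference in the deletion culture. In the deletion culture this was 1 of 55 genes, or 1.82%, against 1.71% of all features called in either direction and 1.65% called higher. In the adapted culture it was again 1 of 55, against 1.22% of all features called in either direction and 1.06% called higher. The members' share was thus near the background in both comparisons, and none of the 55 fell in either (against 0.161% of all features in the adapted and 0.0602% in the deletion culture). Between the adapted and the deletion culture no member passed, against 0.482% of all features, and ubp11 differed by -0.16. Both comparisons with wild type share the wild-type array.

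**Figure D1:**
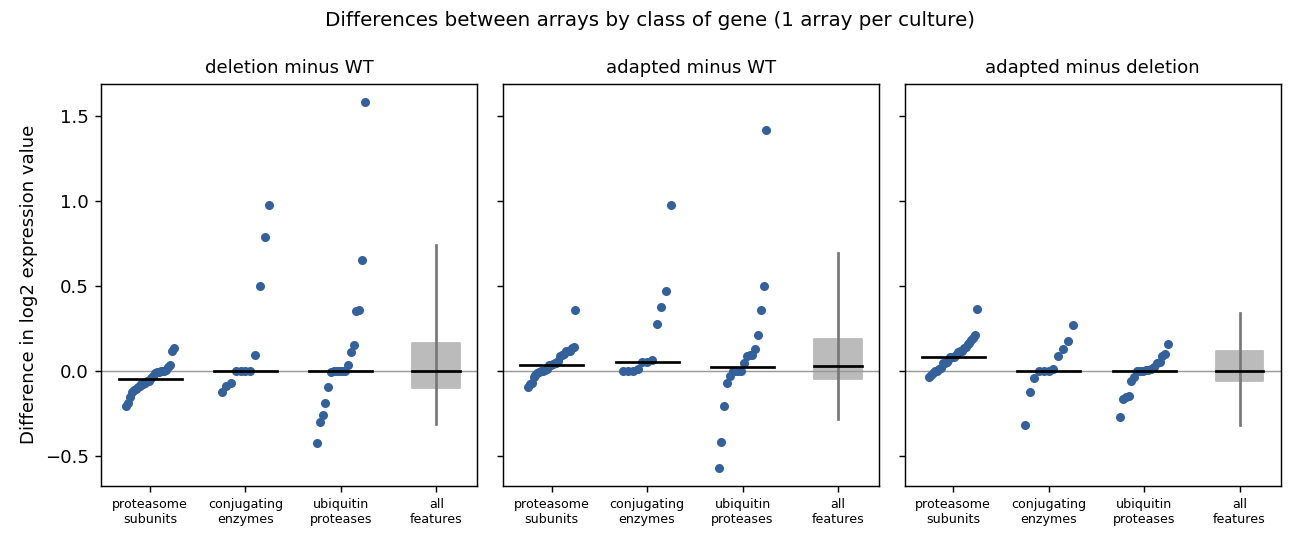
Differences in log2 expression value between arrays for the 26 proteasome subunits, 11 conjugating enzymes and 18 ubiquitin proteases (points, 1 gene each, sorted; black bars, medians) beside all 4981 features (box, 25th to 75th percentile; line, 5th to 95th; bar, median). Proteasome subunits lie in a narrow band in all panels, and the highest point of the proteases against wild type is ubp11, at 1.42 in the adapted and 1.59 in the deletion culture.

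The genes next to ubp11 in the gene order of assembly ASM294v3 were looked up after its values were known. On one side lies rpc10, which encodes a subunit of RNA polymerases and read 11.18 in the adapted culture, 11.35 in the deletion culture and 11.49 in wild type. On the other side lies pat1, the gene of the protein kinase that holds back meiosis by acting on the RNA-binding protein Mei2. It read 9.58 in the adapted culture, 9.62 in the deletion culture and 8.48 in wild type. The differences of pat1 from wild type were 1.10 in the adapted and 1.14 in the deletion culture, more than 2-fold, but all its readings lay below the brightness limit and it did not pass the rule. Those of rpc10 were -0.31 and -0.15. The signals of ubp11 and pat1 therefore stood above wild type on both mutant arrays, whereas rpc10 stood slightly below; whether the probe sets of ubp11 and pat1 read separate transcripts was not tested.

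By Euclidean distance between their differences from wild type on both mutant arrays, the 5 named genes nearest to ubp11 among 2898 others were mel1 (distance 0.12), pas1 (0.14), spn5 (0.21), gmh1 (0.24) and per1 (0.29). The cyclin gene pas1 read 12.85 in the adapted culture, 13.21 in the deletion culture and 11.49 in wild type, and the amino acid permease gene per1 read 13.14, 13.47 and 11.61 in the same order. The other three nearest genes read between 5.26 and 7.87, below the brightness limit on all arrays. This likeness rests on 2 differences that share the wild-type array.

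**Figure D2:**
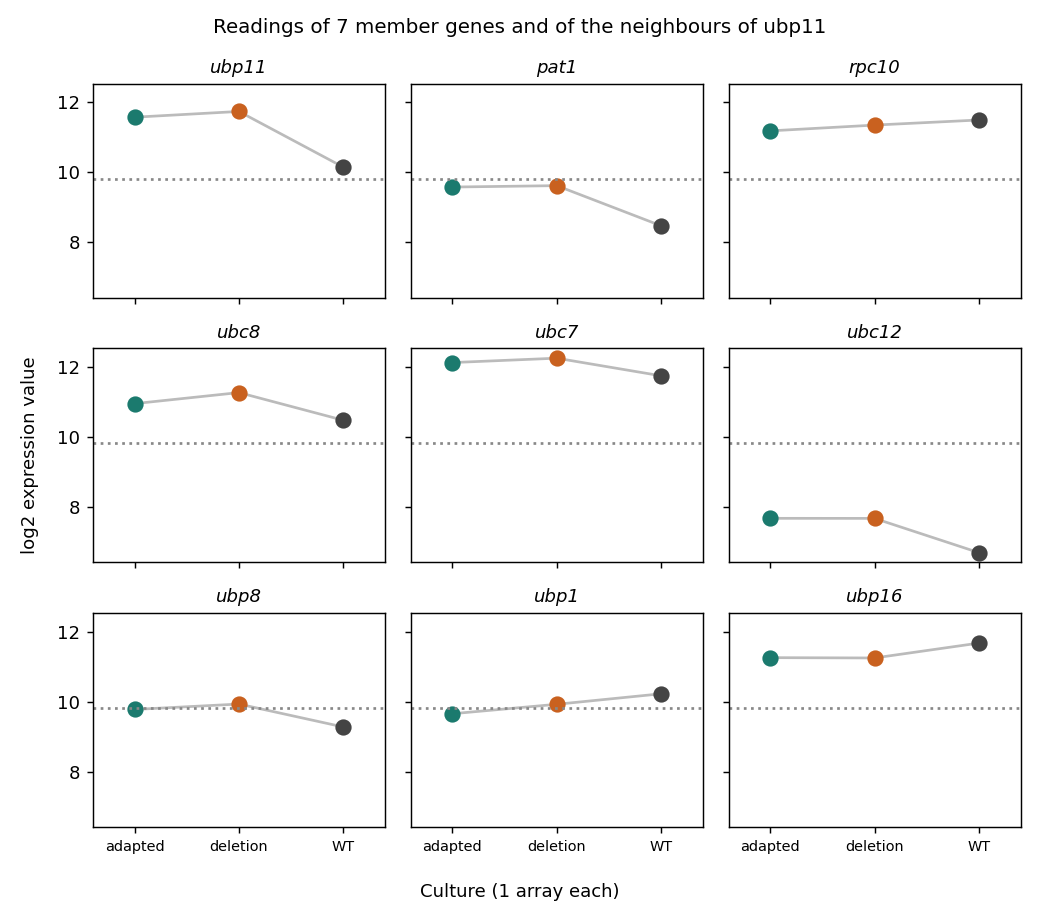
log2 expression values in the adapted, deletion and wild-type cultures (1 point per array; grey lines join them) for 7 member genes and for pat1 and rpc10, the neighbours of ubp11; the dotted line is the brightness limit of 9.82. The readings of ubp11, pat1, ubc7, ubc8, ubc12 and ubp8 are lowest in wild type, and those of rpc10, ubp1 and ubp16 are highest there.

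The proteasome subunits formed the steadiest class. All 26 reached the brightness limit on each array compared. None rose or fell, against 1.22% of all features called in the adapted and 1.71% in the deletion culture. At such shares few of 26 genes would be called, so the lack of calls is no result about the subunits. Their differences from wild type ran from -0.10 to 0.36 in the adapted culture and from -0.21 to 0.14 in the deletion culture. Within 0.25 of wild type on the log2 scale were 25 of 26 in the adapted culture, 96.2% against 73.9% of all features and 77.9% of the features that reached the limit. In the deletion culture all 26 lay within 0.25, against 73.1% of all features and 75.8% of those at the limit. This window was chosen after the values were seen. The subunits read from 10.31 (rpn1302, deletion culture) to 13.37 (pre3, adapted culture), and the features at the limit were not matched to them in brightness. Whether brightness accounts for the narrow range was not tested. The median difference was 0.04 in the adapted culture, where that of all features was 0.03. In the deletion culture it was -0.05, where that of all features was 0.00. After the trend of the differences with intensity was removed, it became 0.02, beside 0.01 for all features.

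In the core particle, the genes of the catalytic subunits are pre3, pup1 and pts1. The adapted culture gave 13.37 for pre3, the deletion culture 13.17 and wild type 13.24. For pup1 the readings were 12.96 in the adapted culture, 12.88 in the deletion culture and 12.87 in wild type, and for pts1 13.12, 12.95 and 12.98 in that order. All 3 were highest in the adapted culture, by 0.20, 0.08 and 0.17 over the deletion culture. Standing above the deletion culture was not particular to them, as 7 of the 8 core genes did so by more than 0.01. The other core genes found by the rule, pre6, pre8, pre10, pup2 and pup3, encode structural subunits of the rings. Of these pup3 stood lowest against wild type, with 12.79 in the adapted culture, 12.67 in the deletion culture and 12.86 in wild type, while pup2 read 13.03 on all 3 arrays. None of the 8 core genes was above wild type by more than 0.01 in the deletion culture, and 5 were below by more than 0.01; in the adapted culture 6 were above and 1 was below. Of all features 53.8% were above and 32.6% below in the adapted culture, and 44.3% above and 40.8% below in the deletion culture. With the intensity trend removed, 4 core genes were above and 3 below in the deletion culture, so their direction there depends on that trend. Of all 4981 features, 2458 were then above and 2239 below.

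The regulatory particle was represented by 18 genes. Its 6 ATPases, rpt1 to rpt6, unfold the substrate and lay close to wild type, with differences of 0.00 to 0.10 in the adapted culture and -0.11 to 0.03 in the deletion culture. The largest of these was that of rpt3, which read 12.67 in the adapted culture, 12.45 in the deletion culture and 12.56 in wild type. The scaffold genes rpn2 and mts4 (also known as rpn1) read within 0.11 of wild type on both mutant arrays. Among the genes of ubiquitin receptors, rpn10 had the highest difference from wild type of the 26 subunits in the deletion culture (0.14). It read 12.38 in the adapted culture, 12.40 in the deletion culture and 12.27 in wild type. A second receptor, Rpn13, is encoded by 2 genes that went apart. The reading of rpn1301 was 12.01 in the adapted culture, 11.64 in the deletion culture and 11.65 in wild type, so that the adapted culture stood 0.36 above wild type and 0.36 above the deletion culture. In contrast rpn1302 read 10.36 in the adapted culture, 10.31 in the deletion culture and 10.40 in wild type. Among the 26 subunits rpn1301 had the largest difference in both comparisons of the adapted culture, 1.28-fold from wild type, and it did not pass the size rule.

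In the lid of the regulatory particle, rpn11 encodes the subunit that cuts ubiquitin off as the substrate enters. It had the lowest difference from wild type of the 26 subunits in the deletion culture (-0.21), with readings of 12.58 in the adapted culture, 12.40 in the deletion culture and 12.60 in wild type. Its partner subunit gene rpn8 followed the same order, with 12.57 in the adapted culture, 12.43 in the deletion culture and 12.58 in wild type. In both cases the adapted culture lay within 0.03 of wild type and the deletion culture lay below. The lid gene rpn6 lay above wild type in both mutant cultures, by 0.14 in the adapted and 0.12 in the deletion culture, whereas rpn12 lay below by 0.10 in both. The remaining lid genes rpn3, rpn7 and rpn9 differed from wild type by -0.08 to 0.12.

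**Figure D3:**
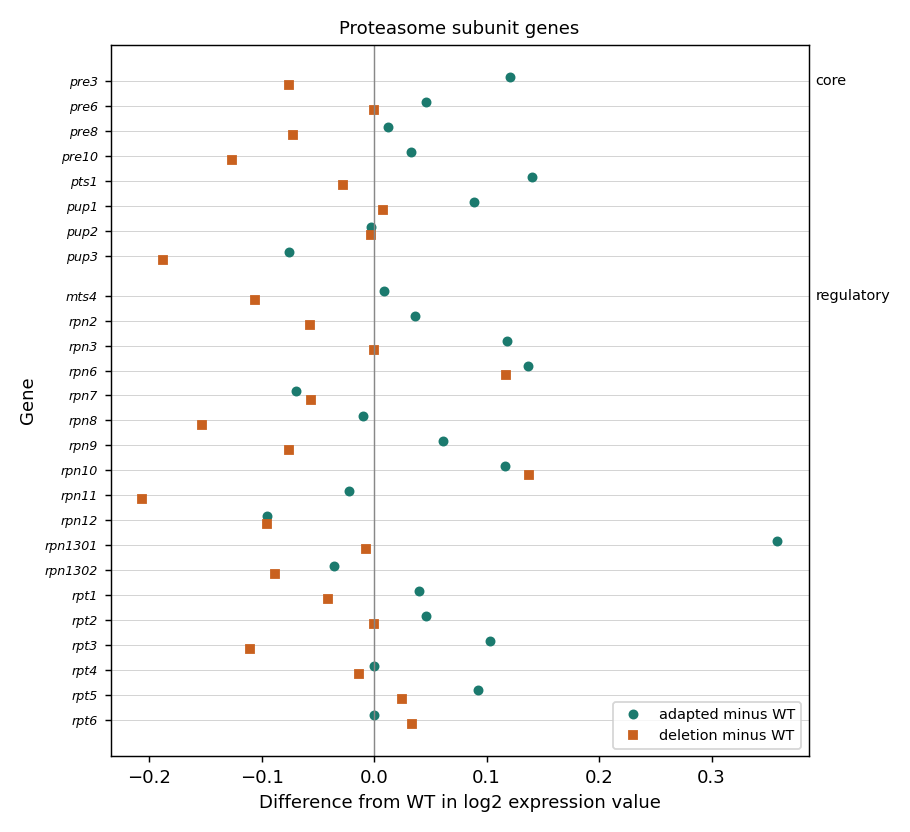
Differences from wild type in log2 expression value for the 26 proteasome subunit genes in the adapted culture (circles) and the deletion culture (squares), with core particle genes above and regulatory particle genes below. The horizontal axis spans less than 2-fold, and rpn1301 in the adapted culture, at 0.36, lies apart from the other points.

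Set directly against the deletion culture, the adapted culture read higher for most subunits, each by a small amount. Of 26 genes 21 were above 0 by more than 0.01 (80.8%, against 48.6% of all features and 52.0% of those at the brightness limit), 3 were below and 2 lay within 0.01. The median difference was 0.08, against 0.003 for all features and 0.02 for those at the limit. The largest differences after that of rpn1301 were those of rpt3 (0.21), pre3 (0.20) and rpn11 (0.18), and the lowest was that of rpt6 (-0.03). With the intensity trend removed, 17 genes were above and 7 below, with a median of 0.04. Of all 4981 features, 2100 were then above and 2403 below, with a median of -0.008. Of the 3609 at the limit, 1584 were above and 1778 below. None of the differences of the subunits reached 1.5-fold, and with 1 array each their error is unknown. Of all features, 1.59% reached 1.5-fold with the higher reading at or above the brightness limit.

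Conjugating enzymes diverged more than the subunits, through ubc8, ubc7 and ubc12. The gene ubc8, whose product in budding yeast helps to destroy enzymes of gluconeogenesis, read 10.96 in the adapted culture, 11.27 in the deletion culture and 10.48 in wild type. It was lowest in wild type and highest in the deletion culture, 1.39-fold above wild type in the adapted culture and 1.73-fold in the deletion culture. The gene ubc7, which encodes an enzyme for the destruction of misfolded proteins of the endoplasmic reticulum, read 12.13 in the adapted culture, 12.25 in the deletion culture and 11.75 in wild type. Its order was that of ubc8, with differences from wild type of 0.38 and 0.50 in the adapted and deletion cultures. Its companion in that pathway, ubc6, read 10.36 on all 3 arrays.

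The gene ubc12 encodes the enzyme that conjugates the ubiquitin-like protein Nedd8 to cullins. It read 7.68 in both mutant cultures and 6.71 in wild type, a difference of 0.98 in each, just short of 2-fold. All its readings lay below the brightness limit, so its size is uncertain. At a threshold of 1.5-fold with the brightness limit kept, ubc8 joined ubp11 and ubp8 among the genes higher in the deletion culture. These were 3 of 55 members or 5.45%, against 3.96% of all features called higher. In the adapted culture ubp11 was the single member past that threshold and limit (1.82%, against 2.61% of all features called higher). The difference of ubc12 exceeded 1.5-fold in both cultures, but its readings lay below the limit.

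The other 8 conjugating enzyme genes lay within 0.28 of wild type. The gene ubc11, for the enzyme that works with the anaphase-promoting complex on mitotic cyclins, read 12.19 in the adapted culture, 11.92 in the deletion culture and 11.91 in wild type, so that the adapted culture alone stood apart, by 0.27. The readings of ubc4, a general enzyme of protein quality control, were 14.59 in the adapted culture, 14.58 in the deletion culture and 14.58 in wild type. These lay close to the top of the scale (15.17), where changes may be understated. The gene ubc13, whose product builds the chains used in repair of stalled replication, read 13.31 on all 3 arrays, and ubc1, ubc14, ubc15 and ubc16 differed from wild type by -0.12 to 0.10. The class median was 0.06 in the adapted culture and 0.00 in the deletion culture, beside 0.03 and 0.00 for all features. Between the adapted and the deletion culture the differences ran from -0.32 for ubc8 to 0.27 for ubc11, with ubc14 at 0.18 and ubc15 at 0.13.

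With ubp11 included, ubiquitin proteases had the widest range of differences from wild type among the classes. The range was -0.57 to 1.42 in the adapted culture and -0.42 to 1.59 in the deletion culture, with medians of 0.02 and 0.00. Its upper end was ubp11 alone, and ubp8 came next, at 0.50 and 0.65. Within 0.25 of wild type were 72.2% of the proteases in the adapted and 61.1% in the deletion culture. The shares were 63.6% and 72.7% for conjugating enzymes, and 73.9% and 73.1% for all features. Besides ubp11, the proteases above wild type by at least 0.25 in both mutant cultures were ubp8 and ubp14. Those below by at least 0.25 in both were ubp1 and ubp16. The gene ubp8, whose product removes ubiquitin from histone H2B as part of the SAGA complex, read 9.79 in the adapted culture, 9.94 in the deletion culture and 9.29 in wild type. It was 1.41-fold above wild type in the adapted culture, where both readings were below the brightness limit, and 1.57-fold in the deletion culture. The gene ubp14, for a protease that in budding yeast takes apart free ubiquitin chains, read 10.05 in both mutant cultures and 9.70 in wild type, or 0.36 and 0.35 above it in the adapted and deletion cultures.

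On the lower side, ubp1 read 9.66 in the adapted culture, 9.93 in the deletion culture and 10.23 in wild type. It was highest in wild type and lowest in the adapted culture, 1.48-fold below wild type there and 1.23-fold below in the deletion culture. The gene ubp16 read 11.26 in the adapted culture, 11.26 in the deletion culture and 11.68 in wild type, so that the mutant readings nearly coincided, 1.33-fold and 1.34-fold below wild type. Further down in size, ubp3, whose budding yeast counterpart takes part in ribosome turnover under starvation, had differences of -0.20 in the adapted and -0.26 in the deletion culture. None of the 3 reached 2-fold.

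Other proteases can be read beside their partners. The gene ubp9, whose product is held by the proteins Bun107 and Bun62, read 9.28 in the adapted culture, 9.43 in the deletion culture and 9.07 in wild type, below the brightness limit throughout. Both partner genes lay closer to wild type, bun107 with 10.74 on all 3 arrays and bun62 with 9.82 in the adapted culture, 9.74 in the deletion culture and 9.74 in wild type. The gene ubp5 read 10.10 on all 3 arrays, while ftp105, for the protein that anchors Ubp5 at the Golgi, read 9.73 in the adapted culture, 9.63 in the deletion culture and 9.91 in wild type. The proteases that sit on the proteasome were near wild type in the adapted culture, with ubp6 at -0.03 and uch2 at 0.00, and at -0.19 and 0.03 in the deletion culture. Of the rest, ubp15 differed by 0.13 and 0.11, ubp12 by -0.07 and -0.09, ubp10 by 0.09 and 0.15, and ubp4, ubp7 and uch1 by at most 0.09 in absolute size. The gene listed as ubp13 is now called pan2 and encodes a subunit of an mRNA deadenylase, not an active ubiquitin protease; it read 11.34 on all 3 arrays, and ubp2 read 10.43 on all 3.

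Identical readings occurred for 6 of 55 members (10.9%), with less than 0.01 between the highest and lowest array, against 8.1% of all features. They were pup2, ubc6, ubc13, ubp2, ubp5 and ubp13. Median polish, which summarises the probes of a set across arrays, can return equal values for different arrays, so a difference of 0 is no measure of how closely transcript levels matched.

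**Figure D4:**
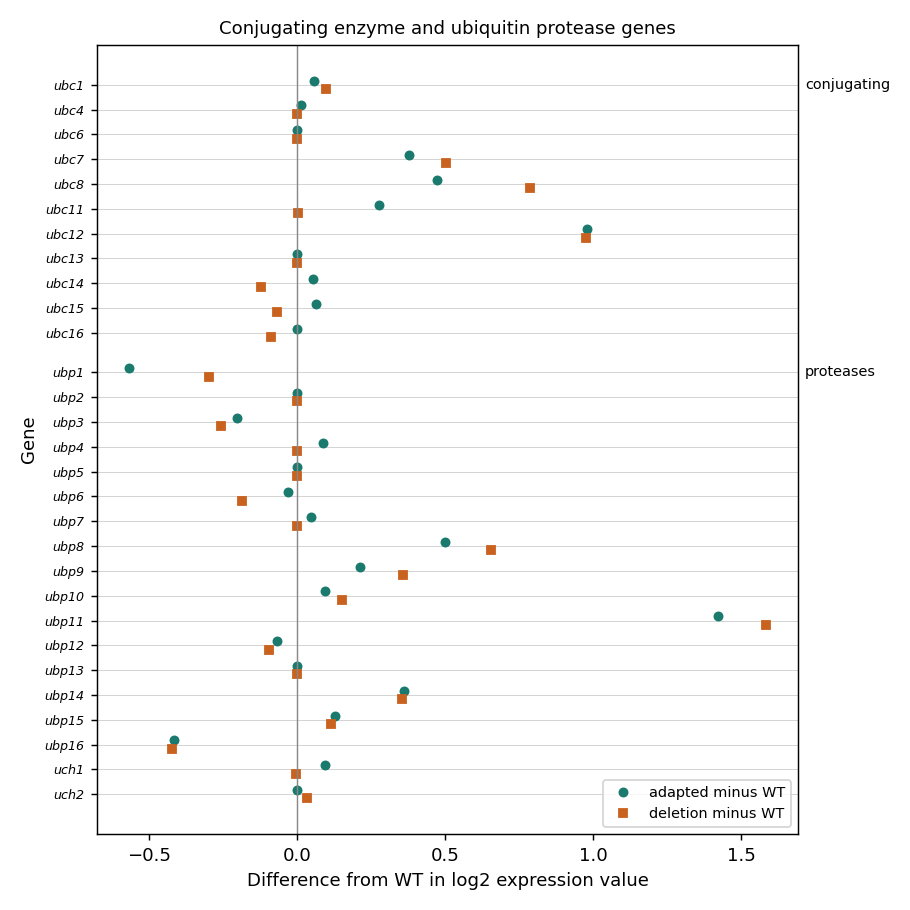
Differences from wild type in log2 expression value for the 11 conjugating enzyme genes (above) and the 18 ubiquitin protease genes (below) in the adapted culture (circles) and the deletion culture (squares). The points of ubp11, at 1.42 and 1.59, are the only ones beyond 1; ubc12, ubc8 and ubp8 follow, and ubp1 and ubp16 lie farthest to the left.

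The rest of the ubiquitin system was read through 8 lists with 120 measured genes. None of these rose or fell in any comparison, against 1.22% of all features called in the adapted culture, 1.71% in the deletion culture and 0.482% between them. In the deletion culture against wild type, 81 of the 120 reached the brightness limit, beside 3569 of 4981 features. At such low background shares few of 120 genes would be called, so the count of 0 is no result about these lists. Their differences ran from -0.39 to 0.74 in the adapted culture and from -0.47 to 0.78 in the deletion culture, with medians of 0.03 and 0.00. Among the 10 modifiers the largest differences were those of ubi4, the polyubiquitin gene, which read 14.22 in the adapted culture, 14.31 in the deletion culture and 13.80 in wild type. Its probe set carries the suffix _x_at, which marks probes that may bind several transcripts. The gene atg12, for a ubiquitin-like protein of autophagy, had a difference of 0.41 in the adapted and 0.51 in the deletion culture. All its readings lay below the brightness limit. Activating and other conjugating enzymes, 7 genes, ran from -0.15 to 0.23 and from -0.24 to 0.18 in the same order, with uba1, the activating enzyme of ubiquitin itself, at 0.06 and -0.12, uba2 at 0.23 and 0.18, mms2 at 0.15 and 0.17 and uba3 at -0.15 and -0.24.

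Another list held 9 measured genes of proteasome assembly, anchoring and other subunits, the last being subunits whose symbols the rule does not match. Lowest there in the deletion culture were rhp23 and dsk2, which encode shuttle proteins that carry marked substrates to the proteasome. The readings of rhp23 were 12.70 in the adapted culture, 12.56 in the deletion culture and 12.96 in wild type, a difference of -0.27 and -0.40. For dsk2 the differences were -0.07 and -0.27, while the assembly chaperone gene ump1 was at 0.09 and 0.03 and ecm29 at 0.03 and 0.25. A further 15 genes were listed for the Cdc48 segregase, which pulls marked proteins out of complexes, and its adaptors. This list is broad, and whether each of its genes, such as def1 and ucp6, encodes an adaptor was not checked. In it dsc5, for a subunit of the Golgi ligase Dsc, stood at 0.54 and 0.57. The gene def1 stood at -0.18 and -0.44, and ucp6 at -0.32 and -0.23.

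Fewer of the ligase genes reached the brightness limit and could have passed. The anaphase-promoting complex had medians of 0.23 in the adapted and 0.16 in the deletion culture over 14 genes. Only 3 of these reached the brightness limit in each comparison. The medians of all features were 0.03 and 0.00, and the intensity trend was not removed for the lists. In the complex, apc13 read 5.05 in the adapted culture, 5.09 in the deletion culture and 4.31 in wild type, near the bottom of the scale. There cut4 stood at 0.60 and 0.44, with all readings below the brightness limit. The activator gene of the complex, slp1, read 11.19 in the adapted culture, 10.83 in the deletion culture and 11.30 in wild type, lowest in the deletion culture. In the list of SCF and cullin ligases, 27 genes with medians of 0.02 and 0.03, cdt2 was likewise lowest in the deletion culture, with 9.87 in the adapted culture, 9.45 in the deletion culture and 9.86 in wild type. That list also held pof14 at 0.43 and 0.52 and ddb1 at -0.39 and -0.26. For pof14 the adapted and wild-type readings lay below the brightness limit. The 22 RING, HECT and other ligases had medians of 0.01 and 0.00. Among them pub2 stood at 0.45 and 0.39 and mug30 at 0.38 and 0.22, both below the brightness limit on all arrays.

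The 16 other deubiquitinases and modifier proteases had medians of 0.02 in the adapted and 0.00 in the deletion culture. In the deletion culture the farthest from wild type were nep2, a Nedd8 protease gene (0.43, with all readings below the brightness limit), and ulp1, a SUMO protease gene (-0.38). The adapted culture put these at 0.04 and -0.05. Farthest there were csn2 (0.33, with all readings below the brightness limit) and otu1 (0.26). Set against the deletion culture, the adapted culture differed by up to 0.42 for cdt2, 0.37 for otu1, 0.36 for slp1, 0.34 for apc14, 0.33 for ulp1 and 0.29 for cul1, and by down to -0.39 for nep2. Among the 2 largest of their own lists in that comparison were also def1 (0.26), dma1 (0.25), urm1 (0.23), prp19 (0.23), dsk2 (0.20), uba1 (0.18) and ecm29 (-0.21), and npl4, atg12 and uba3, each within 0.10. All readings of apc14, dma1 and atg12 lay below the brightness limit.

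**Figure D5:**
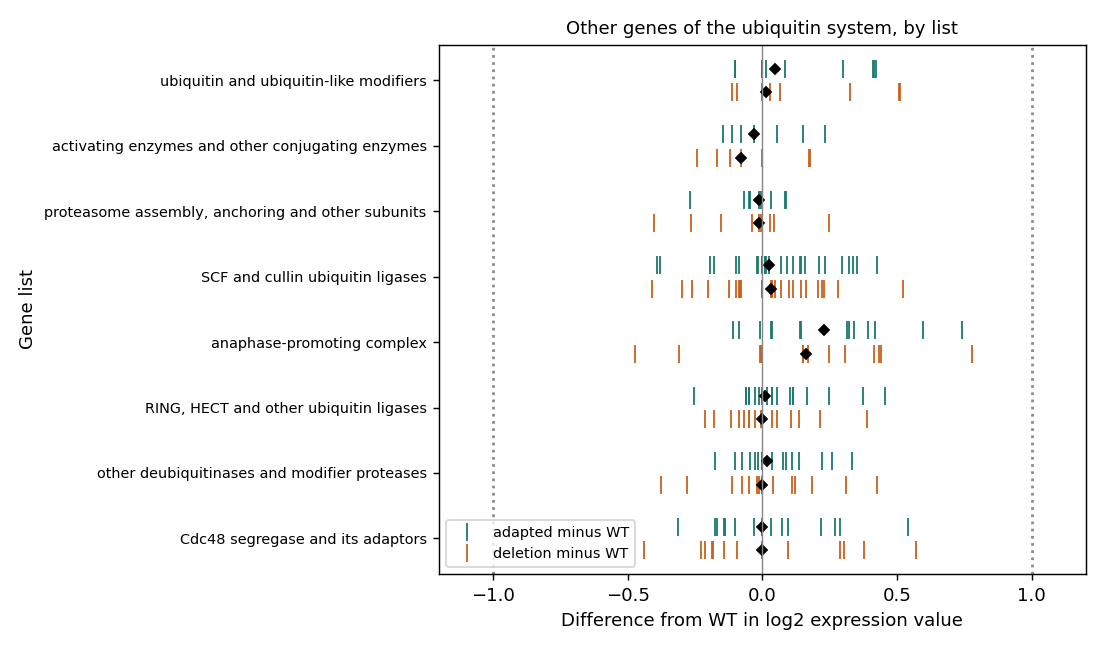
Differences from wild type in log2 expression value for 120 other genes of the ubiquitin system in 8 lists, in the adapted culture (upper row of each list) and the deletion culture (lower row); ticks are genes and diamonds are list medians. No tick lies beyond the dotted lines at 1 and -1, and the list medians lie between -0.08 and 0.23.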

How the data were processed

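Per the submitters' processing notes, the authors made the deposited log2 values with affy's RMA, with no versions given. RMA corrects background, sets the arrays to 1 distribution (a shift of most transcripts would not be seen) and summarises probe sets by median polish. That the base is 2 was inferred from what RMA commonly returns and from the values, 2.99 to 15.17. The genome build of the array is not given in the sources used here.

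Gene names were those of GEO's platform annotation, updated through a RefSeq gene table of ASM294v3 that was used for names and gene order only. Of 4999 probe sets, 2917 had 1 name, 20 several and 2062 none. Probe sets of 1 gene were averaged, which left 4981 features. Differences were computed with Python 3.11.15, pandas 2.3.3 and statsmodels 0.14.6, with lowess (fraction 0.3) for the intensity trend. The size rule and trend removal were run on simulated data as a check of the code. The noise there was taken from the spread between the mutant arrays. That is not a replicate error, so the run gives no error rate for these arrays.

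The members, lists and rules were chosen with earlier results of these data known. Named in full were members past the size rule, the 4 largest differences in each class, the 2 largest in each other list and, for ubp11, its 5 nearest genes; the windows of 0.25 and 0.01, the neighbours and partner genes were added after the values were seen, and 6 symbols of the lists that name unrelated fission yeast genes were removed then. Alternatives covered threshold, brightness limit, normalization, centring and probe sets.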

Additional observations from a re-analysis of the deposited data

How the results depend on the processing

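The rise of ubp11 in both mutant cultures kept its direction and passed the rule after repeated quantile normalization and after removal of the intensity trend. It also passed with a 1.5-fold threshold, with no brightness limit or one at the 50th percentile, and without the probe sets marked _s_at or _x_at. These last settings leave its difference as it was, and its mutant readings lay above the 50th percentile limit of 10.67. Passing under them therefore adds no support. The count of members that rose or fell in the deletion culture, 1 under the size rule, was 3 with a 1.5-fold threshold (ubc8, ubp8 and ubp11). It was 1 under the other 5 of the 6 settings. The counts of 1 in the adapted culture and 0 between the mutant cultures were the same under all 6. The 9 class medians moved by at most 0.065 over 54 alternative values, but 10 of these changed sign, all close to 0. The proteasome median in the deletion culture was -0.05 and ran from -0.08 to 0.02. In the adapted culture it was 0.04, and -0.02 after repeated quantile normalization. Its value between the adapted and the deletion culture was 0.08 and ran from 0.04 to 0.08. Centring on the features at the brightness limit was chosen after seeing the data. No probe set of a member carried the suffixes _s_at or _x_at, so leaving these out changed only the limit and the background. No paired analysis was possible because each group had 1 array, and for the same reason no array could be left out. Depth does not apply to arrays. On all arrays 4 of 55 members (ubc12, ubc16, ubp9 and ubp10) stayed below the brightness limit, and for these the rule could not call a change.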

Other observations

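Some members lie close together in the gene order of ASM294v3; the 6 pairs at most 5 places apart are given here with their differences from wild type. The lid gene rpn3 and the conjugating enzyme gene ubc4 are direct neighbours, with differences of 0.12 and 0.01 in the adapted culture and 0.00 and -0.001 in the deletion culture. Genes 2 places apart are rpn8 and ubp16, where rpn8 stood at -0.01 in the adapted and -0.15 in the deletion culture and ubp16 at -0.41 and -0.42. The pair rpn12 and rpn1301, 3 places apart, stood at -0.10 and 0.36 in the adapted culture and at -0.10 and -0.01 in the deletion culture. At the same spacing, rpn6 and ubp7 stood at 0.14 and 0.05 in the adapted culture and at 0.12 and 0.00 in the deletion culture. The pair rpn1302 and ubp1, 4 places apart, stood at -0.04 and -0.57 in the adapted culture and at -0.09 and -0.30 in the deletion culture. Also 4 places apart are rpt4, at 0.00 in the adapted and -0.01 in the deletion culture, and ubp16. Places count protein-coding genes, and 6 such pairs, which share ubp16 in 2 cases, are too few to describe a trend.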
